A study of Mus musculus with 15 samples.

Results

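The contractile genes of smooth muscle that are targets of serum response factor (SRF), together with Srf itself, were followed across mouse embryonic fibroblasts of 4 genotypes. The 10 genes are Acta2, Actg2, Myh11, Myl9, Tagln, Cnn1, Tpm1, Tpm2, Lmod1 and Srf. All probes that the array names after one of them were taken, which gave 18 of the 41174 distinct probes, and 10 of the 27962 gene names, on the array. Of these, 17 probes passed the filter on dim probes and every gene kept at least 1; the fifth Acta2 probe was not well above background on any array. The other 17 probes were well above background on all 15 arrays. Cells lacking p27 (p27 knock-out, 4 arrays), stathmin (stathmin knock-out, 4 arrays) or both (double knock-out, 3 arrays) were set against wild type cells (4 arrays). All cells had a C57B6 background, came from embryos at 13.5 days after conception and were used at passage 3, at high confluence, after 24 h without serum. The labels give neither the alleles nor how many embryos a culture came from, and they call the samples biological replicates. Each array set the sample, in the red dye, against 1 pool of fibroblast RNA in the green dye, without a dye swap, so each value is given as log2 of sample over reference. p27 (Cdkn1b) inhibits cyclin-dependent kinases and stathmin (Stmn1) binds tubulin and destabilises microtubules; the series asks about a role of p27 in proliferation that does not depend on these kinases.

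SRF is a transcription factor that binds DNA at the CArG box, a short element with an A- and T-rich core between a pair of C and a pair of G. With myocardin or the myocardin-related factors (MRTF-A and MRTF-B), which leave the cytoplasm when globular actin is used up by filament assembly, it drives contractile and cytoskeletal genes. With the ternary complex factors it drives immediate-early genes such as Fos and Egr1. Embryonic fibroblasts are not smooth muscle, but cultured fibroblasts with stress fibres and myofibroblasts express many of the same contractile genes.

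The promoters were searched for the CArG box because SRF acts through it. RefSeq promoters (GRCm38.p6, 250 bases before to 50 after the start of transcription) were at hand for 7 of the 10 genes; Tagln, Actg2 and Myh11 had no entry. The pattern reads the same on both strands, so 1 search covered both. A consensus box was in 2 of the 7 promoters (28.6%), against 535 of all 32851 promoters (1.63%). With 1 change allowed in the core it was in 3 of 7 (42.9%), against 3280 (9.98%). These windows before the start sites hold the matches, which are in capitals, read 5′ to 3′ along the gene's strand. The start sites are those of the promoter entries, so the windows of Acta2 and Srf lie inside the gene spans given below. A match is a description of these letters and does not show binding.
Acta2 (chr19:34255383-34255472, minus strand): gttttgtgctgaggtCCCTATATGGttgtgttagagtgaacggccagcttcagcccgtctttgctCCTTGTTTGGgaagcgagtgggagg
Myl9 (chr2:156775288-156775389, plus strand): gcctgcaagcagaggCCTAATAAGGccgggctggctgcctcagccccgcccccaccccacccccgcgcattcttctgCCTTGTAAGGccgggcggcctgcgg
Srf (chr17:46556200-46556259, minus strand): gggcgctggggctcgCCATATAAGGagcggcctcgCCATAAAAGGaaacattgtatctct
Srf carried 2 consensus boxes, Myl9 1 consensus box and 1 with a changed core, and Acta2 2 with a changed core. No match was found in the windows of Cnn1, Tpm1, Tpm2 and Lmod1.

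The arrays themselves differed in ways the genotypes do not give. p27 knock-out 2 had a mean correlation of -0.12 with the other arrays across all tested probes, against 0.058 to 0.27 for the others. Xist was high and the Y-linked Ddx3y low on 4 arrays (p27 knock-out 2, stathmin knock-out 1 and 2, double knock-out 1). Wild type 1 lay between, with Xist at 0.20 and Ddx3y at -0.27, while Xist was -2.58 to -1.76 on the remaining arrays. Wild type 3 and 4 correlated at 0.815. Of the 4 slides, 3 carried all genotypes and 1 lacked the double knock-out; since every genotype kept 1 place on its slides, place and genotype cannot be told apart. The targeted gene Stmn1 was low by 1 of its 2 probes in the stathmin knock-out (-2.78 ± 0.15, SD, n = 4) and the double knock-out (-2.77 ± 0.08, n = 3), against wild type (0.76 ± 0.10, n = 4). The other Stmn1 probe read -0.51 ± 0.36 and -0.24 ± 0.19 in the same knock-outs, against -0.10 ± 0.34 in wild type, with overlapping ranges. The single tested Cdkn1b probe read -0.34 ± 0.52 in the 4 p27 knock-out cultures and -0.75 ± 0.83 in the 3 with both genes deleted, against 0.22 ± 0.50 in the 4 of wild type (SD). Those ranges overlapped too, and which of these probes lie in a deleted part is not given, so the Cdkn1b probe does not check the p27 labels.

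None of the contractile genes differed between genotypes by the test, and their values varied widely between cultures of the same genotype. All 15 probes with a value lay above 0 on p27 knock-out 1, and all 15 below 0 on p27 knock-out 2. The other arrays had probes on both sides, such as p27 knock-out 3 with 7 of 17 below 0 and stathmin knock-out 2 with 9 of 16. The low extreme was p27 knock-out 2, which was lowest for 14 of the 15 tested probes with a value there. The high extremes were p27 knock-out 1 and double knock-out 2 and 3, which were highest for 5, 4 and 5 of the 17 probes. The median over the member probes of an array, a description of the group of genes, was 0.72, -2.44, 0.25 and -0.75 on p27 knock-out 1 to 4. It was -0.34, -0.10, 0.28 and -0.93 on stathmin knock-out 1 to 4, and -0.13, 0.52 and 0.68 on double knock-out 1 to 3. On wild type 1 to 4 it was -0.23, 0.64, 0.57 and 0.29. The p27 knock-out arrays thus covered both ends of the whole range. In bulk RNA, fewer cells that express these genes and less of their RNA per cell cannot be told apart.

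**Figure D1:**
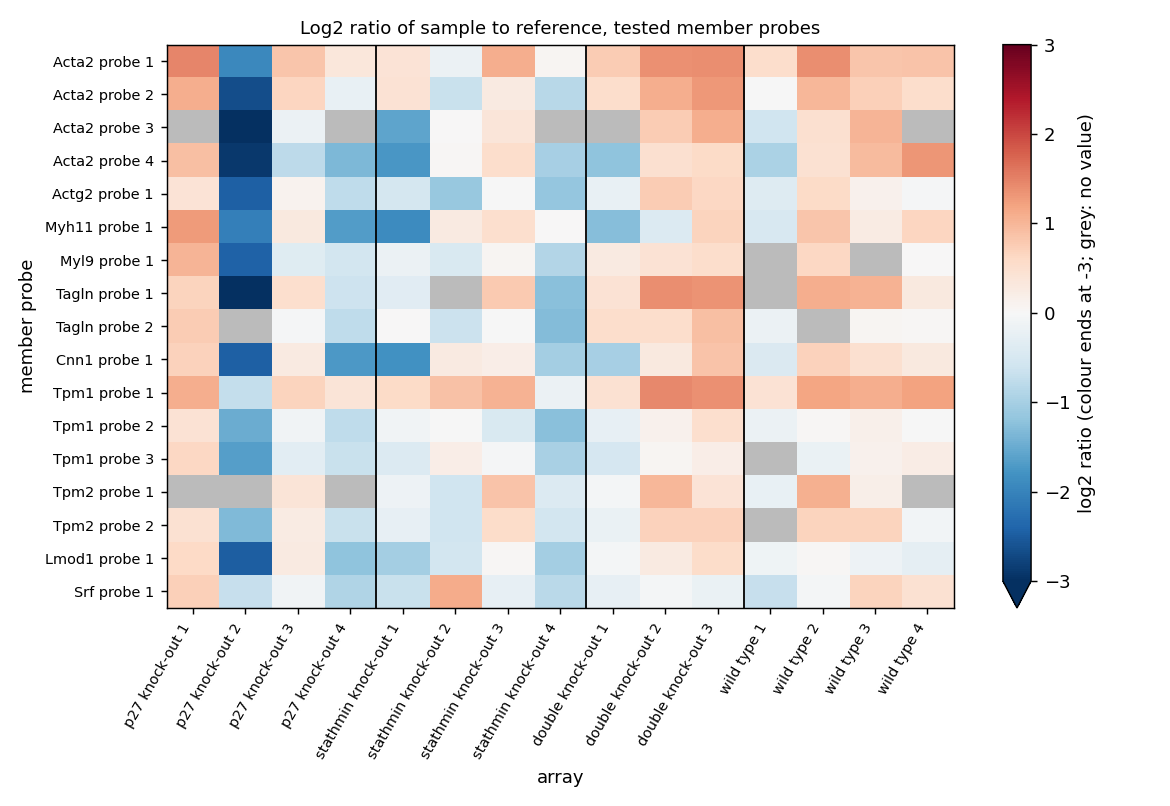
Log2 ratio of sample to reference for the 17 tested probes (rows) on the 15 arrays (columns, by genotype). Red is above and blue below the reference, the colour ends at -3, and grey marks spots left out as outliers. The column of p27 knock-out 2 is blue in every row with a value.

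Acta2 encodes smooth muscle alpha-actin, the main actin of the contractile filaments and the usual marker of myofibroblasts. Its gene lies at chr19:34240336-34255585 (GRCm38), and probe numbers here run from the brightest to the dimmest. By its second probe, the brightest that was never saturated, Acta2 read 1.10, -2.67, 0.65 and -0.23 in p27 knock-out and 0.43, -0.68, 0.28 and -0.84 in stathmin knock-out. It read 0.52, 1.09 and 1.31 in double knock-out, against -0.02, 0.99, 0.71 and 0.53 in wild type. p27 knock-out 2 was the lowest array of all, and p27 knock-out 1 was above every wild type array. The difference from wild type was -0.84 in p27 knock-out (SE 0.633, limma adjusted p = 0.808) and -0.75 in stathmin knock-out (SE 0.633, adjusted p = 0.917). It was 0.42 in double knock-out (SE 0.683, adjusted p = 1.00). The first of these was -0.04 (SE 0.386) once p27 knock-out 2 was left out.

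Over arrays, probes of the same gene correlated at 0.71 to 0.97 (11 pairs, those of Acta2 among them). Acta2 probe 1, spotted 10 times, was saturated in the sample channel on 14 of 15 arrays, all but p27 knock-out 2, so no fold is given for it. Probe 4, dimmer and named from a cDNA clone, read 0.89, -2.90, -0.79 and -1.36 in p27 knock-out and -1.75, 0.03, 0.53 and -1.01 in stathmin knock-out. It read -1.20, 0.49 and 0.57 in double knock-out, against -0.95, 0.47, 0.94 and 1.32 in wild type. Of the p27 knock-out arrays, 2 lay below the wild type range and 2 within it. The p27 knock-out difference from wild type was -1.49 by this probe (SE 0.761, adjusted p = 0.797). In double knock-out the probes differed in sign, at -0.49 by probe 4 (SE 0.822, adjusted p = 1.00) against 0.42 by probe 2.

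Acta2 probe 3 kept only 10 values, since 5 of its spots were marked as outliers by the scanner software. Its difference between p27 knock-out (n = 2, -4.45 and -0.17) and wild type (n = 3, -0.59, 0.48 and 1.02) was -2.61 (SE 1.13, unadjusted p = 0.0473 and adjusted p = 0.797 by limma's fit). This was the only member probe with an unadjusted p under 0.05 in that comparison. Without p27 knock-out 2 it was -0.47 (SE 0.806), from 1 array that is assumed to vary like the other groups.

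Actg2 encodes smooth muscle gamma-actin, the actin of visceral smooth muscle. Actg2 (chr6:83512909-83536251) read 0.41, -2.44, 0.11 and -0.75 in p27 knock-out and -0.53, -1.14, -0.0097 and -1.17 in stathmin knock-out. Its values were -0.23, 0.76 and 0.62 in double knock-out, against -0.39, 0.58, 0.13 and -0.04 in wild type. In stathmin knock-out 3 of 4 arrays lay below all wild type arrays, and double knock-out 2 and 3 lay above them all. The differences from wild type were -0.74 in p27 knock-out (SE 0.513, adjusted p = 0.805), -0.78 in stathmin knock-out (SE 0.513, adjusted p = 0.916) and 0.31 in double knock-out (SE 0.554, adjusted p = 1.00). Acta2, Actg2 and the other actins have very similar coding sequences, and whether their probes share signal was not tested.

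Myh11 encodes the heavy chain of smooth muscle myosin, the motor that is the most selective marker of mature smooth muscle. Myh11 (chr16:14194527-14292188) read 1.27, -2.05, 0.29 and -1.69 in p27 knock-out and -1.88, 0.28, 0.51 and 0.02 in stathmin knock-out. It read -1.27, -0.41 and 0.68 in double knock-out, against -0.48, 0.84, 0.25 and 0.64 in wild type. Each knock-out genotype had at least 1 array below the whole wild type range, and p27 knock-out 1 lay above it. Genotype accounted for 10.2% of its variance over arrays, and the differences from wild type were -0.86 (SE 0.727), -0.58 (SE 0.727) and -0.65 (SE 0.785) in the p27, stathmin and double knock-outs. Their adjusted p-values were 0.82, 0.94 and 1.00.

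Myl9 encodes the regulatory light chain of non-sarcomeric and smooth muscle myosin, whose phosphorylation switches contraction on. Myl9 (chr2:156775408-156781657) read 1.02, -2.44, -0.37 and -0.55 in p27 knock-out and -0.17, -0.46, 0.06 and -0.88 in stathmin knock-out. It read 0.27, 0.42 and 0.53 in double knock-out, against 0.62 and 0.0040 on the 2 wild type arrays that kept a value. The 3 double knock-out arrays lay above all 4 stathmin knock-out arrays, a difference of 0.77 (SE 0.594, adjusted p = 1.00).

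**Figure D2:**
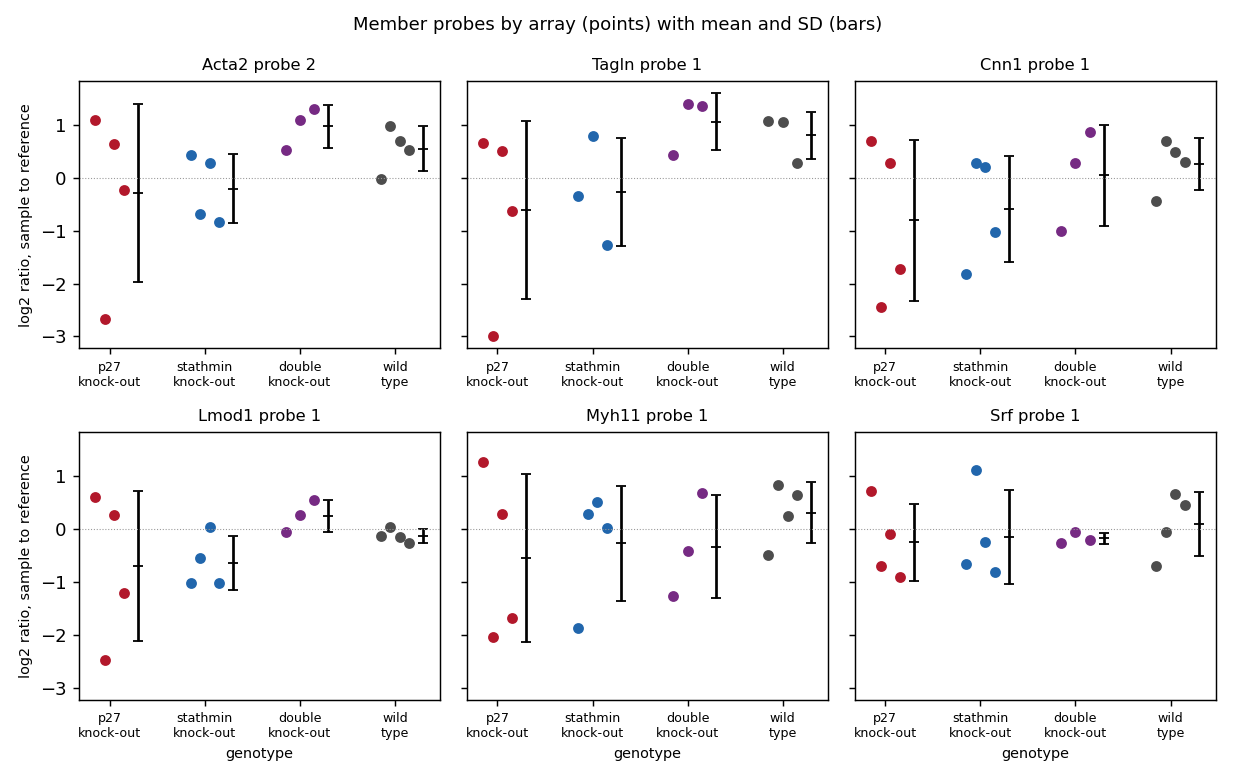
Log2 ratios of 6 member probes by genotype, 1 point per array, with the mean and SD as the bar beside the points. In every panel but that of Srf, 1 of the p27 knock-out points (p27 knock-out 2) lies below -2, apart from all wild type points.

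Tagln encodes transgelin (SM22), which binds and cross-links actin filaments. Tagln (chr9:45929628-45936058) read 0.66, -2.99, 0.51 and -0.62 by its first probe in p27 knock-out, and -0.34, 0.80 and -1.26 on the 3 stathmin knock-out arrays with a value. It read 0.44, 1.40 and 1.35 in double knock-out, against 1.08, 1.05 and 0.29 on the 3 wild type arrays with a value. The probe was saturated in the sample channel on double knock-out 3, which limits the 1.35 there. Of the p27 knock-out arrays, 2 lay below all wild type arrays and 2 within their range. The difference from wild type was -1.42 in p27 knock-out (SE 0.776, adjusted p = 0.797), -1.07 in stathmin knock-out (SE 0.8293, adjusted p = 0.916) and 0.26 in double knock-out (SE 0.8293, adjusted p = 1.00). Leaving out p27 knock-out 2 gave -0.62 (SE 0.517) for the first.

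The second Tagln probe gave the largest contrast between double and stathmin knock-out relative to its error. It read 0.53, 0.52 and 0.90 in double knock-out, against 0.02, -0.63, -0.01 and -1.31 in stathmin knock-out. On the wild type arrays with a value it read -0.17, 0.06 and 0.03. On p27 knock-out 1, 3 and 4 it read 0.76, -0.03 and -0.76, a difference of 0.01 from wild type (SE 0.393). The first probe gave -0.62 (SE 0.517) without p27 knock-out 2, so the probes differed there too. The double knock-out arrays lay above all stathmin knock-out and all wild type arrays. The difference was 1.13 from stathmin knock-out (SE 0.367, unadjusted p = 0.00989, adjusted p = 1.00 by limma's fit) and 0.68 from wild type (SE 0.393, adjusted p = 1.00). The spots of p27 knock-out 2 and wild type 2 were left out as outliers; they read -2.44 and 0.67, and with the second the double knock-out no longer lay above every wild type array.

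Cnn1 encodes calponin, which binds actin and slows the myosin ATPase. Cnn1 (chr9:22099221-22109221) read 0.70, -2.44, 0.27 and -1.73 in p27 knock-out and -1.81, 0.28, 0.20 and -1.03 in stathmin knock-out. It read -1.01, 0.28 and 0.87 in double knock-out, against -0.44, 0.70, 0.49 and 0.29 in wild type. Each knock-out genotype had arrays on both sides of the wild type minimum. The difference from wild type was -1.06 in p27 knock-out (SE 0.688, adjusted p = 0.799), -0.85 in stathmin knock-out (SE 0.688, adjusted p = 0.916) and -0.21 in double knock-out (SE 0.743, adjusted p = 1.00).

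Tpm1 and Tpm2 encode tropomyosins, coiled coils that lie along actin filaments and control access of myosin. Tpm1 (chr9:67022590-67049672) read 1.09, -0.71, 0.67 and 0.40 by its first probe in p27 knock-out and 0.59, 0.88, 1.04 and -0.19 in stathmin knock-out. It read 0.45, 1.44 and 1.37 in double knock-out, against 0.44, 1.18, 1.09 and 1.21 in wild type. Its spread was narrower than that of the actins, with an SD over arrays of 0.594 against 1.02 for Acta2 probe 2. The first Tpm1 probe was saturated in the sample channel on double knock-out 3, which limits the 1.37 there and this SD. By the second Tpm1 probe, never saturated, the SD was 0.560. The 3 Tpm1 probes differed from wild type by -0.62, -0.48 and -0.56 in p27 knock-out, by -0.40, -0.46 and -0.36 in stathmin knock-out and by 0.11, 0.13 and -0.14 in double knock-out, with SEs of 0.362 to 0.462. The probes of this gene may read different splice forms; which exons they lie in is not given.

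Tpm2 (chr4:43513726-43523583) read 0.46, -1.34, 0.25 and -0.66 by its second probe in p27 knock-out and -0.26, -0.60, 0.56 and -0.54 in stathmin knock-out. It read -0.20, 0.70 and 0.69 in double knock-out, against 0.66, 0.66 and -0.09 on the 3 wild type arrays with a value. The groups overlapped, and the differences from wild type were -0.73 (SE 0.434), -0.62 (SE 0.434) and -0.01 (SE 0.464) in the p27, stathmin and double knock-outs. The first Tpm2 probe kept 1 of 4 p27 knock-out values, 0.38. The 3 that were left out there read 0.86, -1.17 and -0.44, so its difference of 0.04 from wild type in p27 knock-out comes from 1 array.

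Lmod1 encodes leiomodin 1, which starts actin filaments in smooth muscle. Lmod1 (chr1:135324813-135368065) read 0.60, -2.47, 0.27 and -1.20 in p27 knock-out and -1.02, -0.55, 0.04 and -1.02 in stathmin knock-out. It read -0.05, 0.27 and 0.55 in double knock-out, against -0.13, 0.03, -0.15 and -0.27 in wild type. Wild type was the tightest group for this gene, with an SD of 0.12, against 1.42 in p27 knock-out, 0.51 in stathmin knock-out and 0.30 in double knock-out. The difference from wild type was -0.57 in p27 knock-out (SE 0.517, adjusted p = 0.831), -0.51 in stathmin knock-out (SE 0.517, adjusted p = 0.924) and 0.38 in double knock-out (SE 0.558, adjusted p = 1.00). With p27 knock-out 2 left out, the first was 0.02 (SE 0.374).

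Srf, the transcription factor, did not follow its targets closely. Srf (chr17:46546838-46558267) read 0.72, -0.70, -0.10 and -0.90 in p27 knock-out and -0.66, 1.12, -0.24 and -0.81 in stathmin knock-out. It read -0.26, -0.06 and -0.21 in double knock-out, against -0.69, -0.06, 0.66 and 0.46 in wild type. The lowest array was p27 knock-out 4, not p27 knock-out 2, and the highest was stathmin knock-out 2. Genotype accounted for 4.82% of its variance, and the differences from wild type were -0.34 (SE 0.44), -0.24 (SE 0.44) and -0.27 (SE 0.475) in the p27, stathmin and double knock-outs. Their adjusted p-values were 0.885, 0.96 and 1.00.

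In p27 knock-out against wild type, 15 of the 17 member probes lay below 0, against 50.3% of all probes. Their median difference was -0.73 (range -2.61 to 0.04), against -0.0021 over all probes. The 2 member probes above 0, Tagln probe 2 and Tpm2 probe 1, were those without a value on p27 knock-out 2. None of the 17 was called at an adjusted p under 0.05, as was 0% of the 27667 probes tested. At an unadjusted p under 0.05 there was 1 member, against 5.84% of all probes, and the smallest adjusted p was 0.797. Without p27 knock-out 2 the median was -0.19, with 14 of 17 below 0 and none called. Within slides the median member difference was 0.94, -3.02, -0.23 and -0.81 on slides 1 to 4, so slide 1 ran opposite to the other slides. Because arrays of the same genotype varied widely in the member probes, their differences were estimated less precisely than most. The median 95% interval reached 1.19 to either side, against 0.48 over all probes, and for 16 of 17 it held a 2-fold lower value.

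In stathmin knock-out against wild type, all 17 member probes lay below 0, with a median of -0.58 (range -1.07 to -0.24), against 49.7% of all probes below 0. None was called, against 0.00723% of 27675 probes, and none had an unadjusted p under 0.05, against 4.84%. The adjusted p-values ran from 0.916 to 0.96. Within slides the median was -0.10, -0.56, -0.16 and -1.23 on slides 1 to 4, the same sign on each. The probes share arrays and move together, so their 17 signs are not 17 separate observations. With Xist as a covariate in the fit the median was -0.25.

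In double knock-out against wild type, 11 of 17 probes lay above 0, against 48.8% of all probes. The median was 0.12 (range -0.65 to 0.68), which became -0.17 with the slide as a block. None was called, against 0.00361% of all probes, and none had an unadjusted p under 0.05, against 2.26%. The second Tagln probe alone, 1 of 17, lay above all wild type arrays with a value, against 3.05% of all probes. Within slides 1, 3 and 4 the median was 0.12, 0.19 and 0.53. A 2-fold higher value lay inside the interval of 12 probes and a 2-fold lower one inside that of 11. With 3 and 4 arrays, a difference of that size was thus not excluded for most of these probes.

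**Figure D3:**
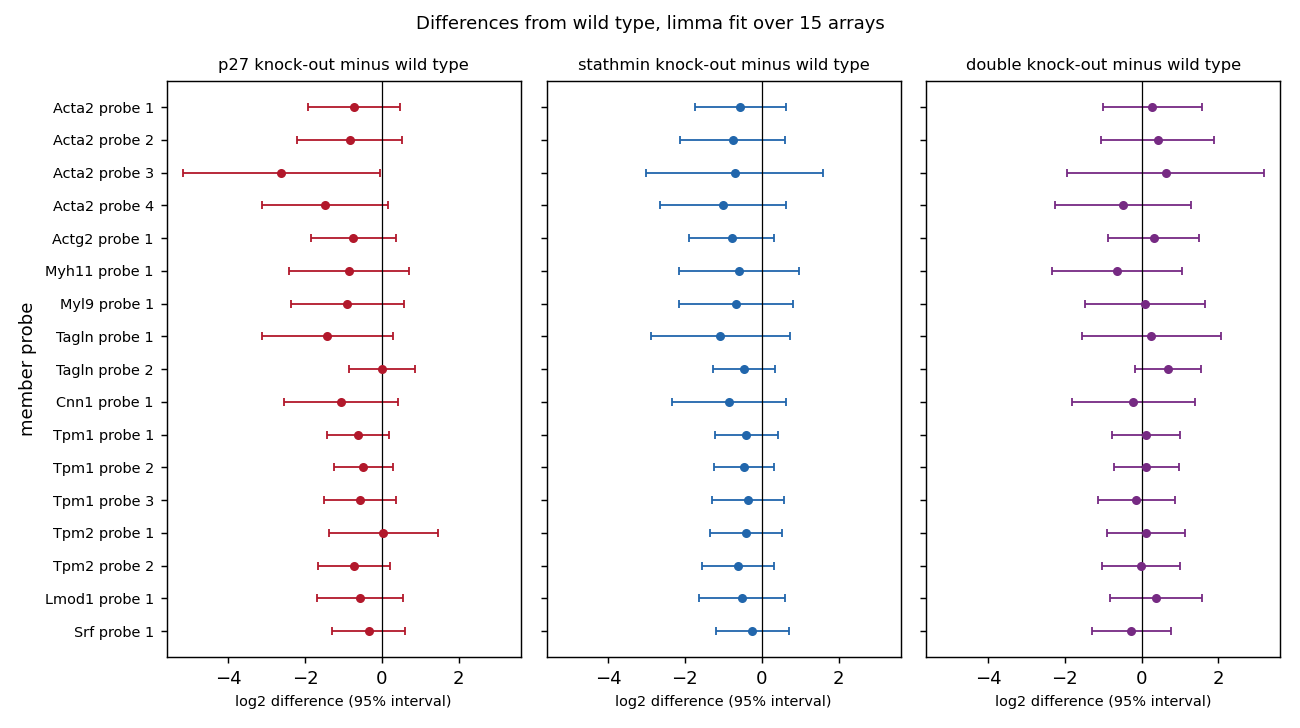
Difference in log2 ratio from wild type of each tested member probe (points) with its 95% interval (bars), for p27, stathmin and double knock-out. The points lie mostly below 0 in the 2 single knock-outs and around 0 in the double knock-out, and among the intervals shown only that of Acta2 probe 3 in p27 knock-out leaves out 0.

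The double knock-out lay above each single knock-out for most member probes. Against p27 knock-out all 17 were above 0, with a median of 0.84 (range 0.07 to 3.24), against 50.2% of all probes. None was called, against 0.00361% of all probes, and 1 had an unadjusted p under 0.05 (Acta2 probe 3, from 2 arrays each), against 2.89%. That probe alone had groups that did not overlap, against 1.63% of all probes, and they overlapped once its outlier spots were kept (-0.41 on double knock-out 1 and 0.94 on p27 knock-out 1). Without p27 knock-out 2 the median was 0.37, with 15 above 0. Within slides 1, 3 and 4 it was -0.68, 0.55 and 1.37, so slide 1 again ran the other way. Against stathmin knock-out 15 of 17 were above 0, against 50.2% of all probes, with a median of 0.64 (range -0.06 to 1.33). None was called, as was 0% of all probes, and 1 had an unadjusted p under 0.05 (Tagln probe 2), against 3.55%. The 4 probes whose double knock-out arrays all lay above the stathmin knock-out arrays were Acta2 probes 2 and 3, Tagln probe 2 and Myl9, against 2.26% of all probes. With outlier spots kept, Acta2 probe 3 overlapped here too (-0.41 on double knock-out 1 and 0.36 on stathmin knock-out 3). Within slides the median was 0.37, 0.28 and 1.56. These comparisons share the double knock-out and, with those above, the single knock-out and wild type arrays, so they are not separate observations.

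The interaction asks whether loss of p27 does the same in cells without stathmin as in cells with it. It was above 0 for all 17 member probes, against 49.8% of all probes, with a median of 1.46 (range 0.31 to 3.94). None was called, as was 0% of all probes, and the smallest adjusted p was 0.682. An unadjusted p under 0.05 was found for 5 probes (Acta2 probes 2 and 3, Tagln probe 1, Tpm2 probe 2 and Actg2), against 7.3% of all probes. The interaction of Actg2 was 1.83 (SE 0.755, unadjusted p = 0.0297 by limma's fit) and that of Srf 0.31 (SE 0.648). Without p27 knock-out 2 the median was 1.00, still with all 17 above 0 and none called.

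The spread of the contractile probes lay mostly within genotypes. Their median SD over arrays was 0.848, against 0.32 over all tested probes, and 0.615 against 0.306 without p27 knock-out 2. Genotype accounted for a median of 23.9% of their variance, against 17% for all tested probes. Probes of different member genes, leaving out Srf, correlated over arrays with a median Pearson r of 0.85 (109 pairs, 0.26 to 0.99, 8 to 15 arrays a pair). The median was 0.74 without p27 knock-out 2, and for deviations from genotype means it was 0.78, above 0 in 108 of 109 pairs. Srf correlated less with the others, at a median of 0.50 over 16 pairs (-0.03 to 0.76). All values share the arrays and the reference pool, so these are descriptions.

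Part of the swing of the brightest probes was in the reference channel, which held the same pool on every array. This was read from the scanned log2 signals less the median of their array, before any other step. Among the 12 contractile probes with a mean log2 brightness of at least 16, the reference signal ran opposite to the sample signal in all 12 (r from -0.88 to -0.41 over the arrays with a value). Its SD over arrays was 0.237 to 0.654, against a median of 0.18 for the 1306 tested probes of that brightness. Whether channels running opposite were particular to the contractile probes was not tested in the scanned signals. In the normalised channels, the median r was -0.46 over those 1306 probes, against -0.96 to -0.63 in the 12. Normalisation acts on both channels, so these values do not decide the question. In the 5 dimmer probes (Acta2 probe 4, Tpm1 probe 3, Lmod1, Myh11 and Srf) the reference SD was 0.0586 to 0.125. On p27 knock-out 2 the reference channel made up 37% of the gap between the channels in both Acta2 probe 2 and Tagln probe 1, taken from the median of the other arrays. It made up 6.7% in Lmod1 and 4.62% in Myh11, whose sample signal on that array stood at -2.42 and -2.28 (log2) from the median of the others. With the sample channel alone in the fit, the median member difference was -0.60 for p27 knock-out against wild type and 0.52 for double knock-out against p27 knock-out. What moved the reference signal of the bright probes was not tested.

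**Figure D4:**
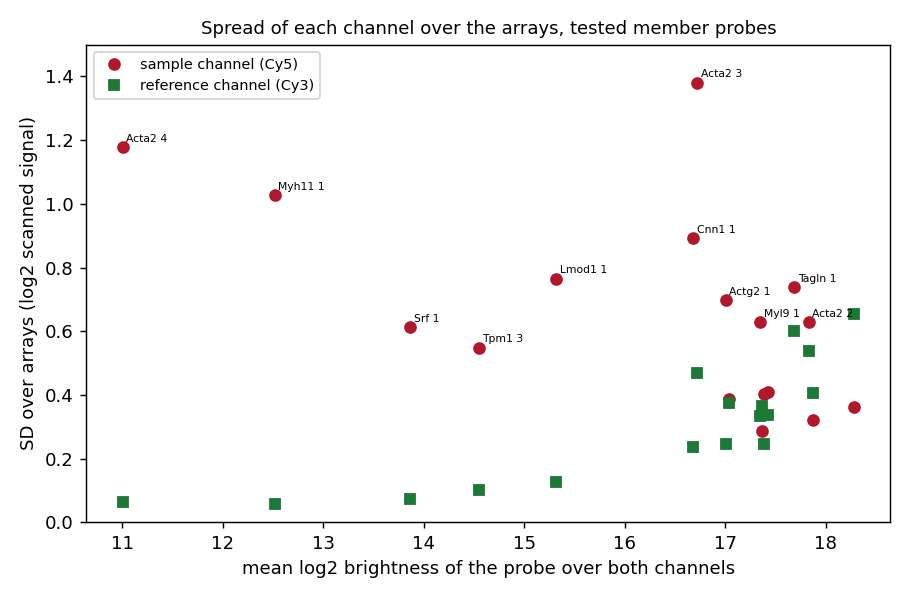
SD over arrays of the scanned log2 signal, less the array's median, in the sample channel (circles) and the reference channel (squares) for the 17 tested probes, by mean log2 brightness. The reference SD stays at or below 0.125 for the 5 probes under 16 and reaches 0.654 for the brightest.

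Other genes of the SRF pathway were read beside the members, 1 probe a gene, and none was called in any comparison. The other cytoskeletal SRF targets (18 of 19 on the array by name, all tested) ran the same way as the contractile genes: 15 of 18 lay below 0 in p27 knock-out against wild type (median -0.31) and 16 of 18 in stathmin knock-out (median -0.31). In double knock-out against wild type 7 of 18 lay below 0 (median 0.04). Among the differences from wild type, the smallest p was that of Des, the intermediate filament protein desmin. Des averaged -2.09 in stathmin knock-out and 0.20 in wild type (difference -2.29, SE 0.712, adjusted p = 0.916). Smtn, also a smooth muscle marker, differed little from wild type. Its differences were -0.20 (SE 0.258), -0.09 (SE 0.258) and -0.20 (SE 0.279) in the p27, stathmin and double knock-outs. Over the 15 arrays the mean of this list correlated with the member median at r = 0.94 (Spearman's coefficient 0.96, r = 0.89 without p27 knock-out 2).

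The partners of SRF could be tested for 8 of 10 genes; Myocd, which encodes myocardin, was well above background on 7 arrays and Elk1 on 2. The 8 were Mrtfa, Mrtfb, Elk3, Elk4, Fhl2, Mical2, Pxn and Gata6. In p27 knock-out against wild type 6 of 8 lay below 0 (median -0.34). The largest differences were those of Fhl2 (-0.90, SE 0.545) and Mical2 (-0.87, SE 0.640). The 2 above 0 were Pxn (0.28, SE 0.197) and Mrtfa, which encodes MRTF-A (0.21, SE 0.355), so the partners did not move as one. The smallest p was that of Mrtfb, which encodes MRTF-B and averaged -0.35 in p27 knock-out and 0.11 in wild type (difference -0.46, SE 0.176, adjusted p = 0.797). The list's mean correlated with the member median at r = 0.92 (Spearman's coefficient 0.91, r = 0.81 without p27 knock-out 2). For 15 genes of the TGF-beta pathway, an inducer of myofibroblasts, the median differences from wild type were -0.18, -0.14 and -0.24 in the p27, stathmin and double knock-outs, and the list's mean had r = 0.38 (Spearman's coefficient 0.69, r = 0.48 without p27 knock-out 2).

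The immediate-early targets of SRF, which answer to serum through the ternary complex factors, did not run with the contractile genes. All 8 were tested, and their mean had r = -0.10 with the member median (Spearman's coefficient 0.16, r = 0.19 without p27 knock-out 2). In double knock-out 7 of 8 lay below wild type (median difference -1.23) and 8 of 8 below each single knock-out (medians -1.10 against p27 and -1.35 against stathmin knock-out), with none called. Ier2, an immediate-early gene with the smallest p of the list, averaged -1.57 in double knock-out and 0.20 in p27 knock-out (difference -1.77, SE 0.672, adjusted p = 1.00). Egr1, a zinc finger transcription factor, averaged -1.49 in double knock-out and 0.36 in p27 knock-out (difference -1.85, SE 0.786, adjusted p = 1.00). The mean of the list on an array ran from -1.54 to -1.27 in double knock-out, against -1.59 to 0.81 in wild type. The highest, 1.61, was on stathmin knock-out 2, the array with the highest Srf.

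Markers of other cell types moved with some of these arrays. The smooth muscle markers Smtn and Des were well above background on all 15 arrays. The mean of 10 macrophage markers, all tested, was 2.43 on p27 knock-out 2, where the contractile genes were lowest. It ran from -2.996 to 2.43 in p27 knock-out, from -1.80 to -1.05 in stathmin knock-out and from -2.59 to 1.44 in double knock-out, against -1.95 to -0.64 in wild type. Double knock-out 3 had the second highest value, 1.44, with high contractile genes. The mean of 10 fibroblast markers was also highest on p27 knock-out 2, at 2.00. It ran from 0.07 to 2.00 in p27 knock-out, 0.11 to 1.23 in stathmin knock-out and -0.22 to 0.26 in double knock-out, against -0.36 to 0.42 in wild type. Its r with the member median was -0.831 (Spearman's coefficient -0.63, r = -0.61 without p27 knock-out 2). The genes behind this mean did not move as one. In p27 knock-out against wild type 5 of the 10 lay below 0 and 5 above, with a median difference of 0.0026. The part of these cells in the contractile values was not tested. Of the endothelial markers, Pecam1 was not well above background on any array and Cdh5 and Tie1 were on 1 each, while Kdr, Flt1 and Emcn were on 15 and Tek on 14.

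**Figure D5:**
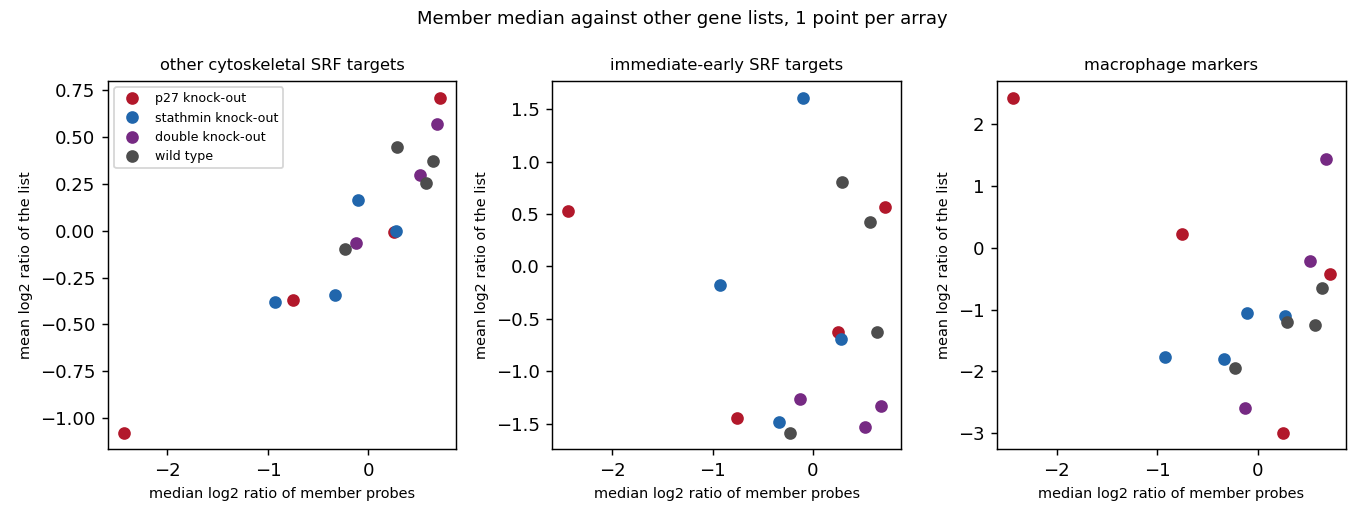
Mean log2 ratio of 3 gene lists (other cytoskeletal SRF targets, immediate-early SRF targets, macrophage markers) against the median log2 ratio of the member probes, 1 point per array, coloured by genotype. The cytoskeletal list rises with the members along the whole range, with p27 knock-out 2 at the lower left; the other lists show no such line.

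The probes most like the contractile genes over the 15 arrays were found by Pearson's r over 26760 other probes. The profile was the mean of the 10 member genes, each scaled and read by its brightest tested probe. For Acta2 this was probe 1, saturated on 14 arrays, and for Tpm2 probe 1, with 11 values and none on p27 knock-out 2. With an unsaturated Acta2 probe instead, the r of the 10 highest ran from 0.914 to 0.947. Among the 10 with the highest r were 4930429B21Rik (0.948), LOC620393 (0.943), Actc1 (0.938), Hacd1 (0.93), Flna (0.928), Cux1 (0.924), Pdlim7 (0.923), Acta1 (0.919) and Abcg2 (0.917). Actc1 and Acta1 encode the cardiac and skeletal muscle alpha-actins and Flna the actin cross-linker filamin A. An r over 0.9 was found for 20 probes and one over 0.8 for 198. Part of each r came from p27 knock-out 2: without it the 10 ranged from 0.828 for Acta1 to 0.929 for Hacd1.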

How the data were processed

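RNA of fibroblasts of 4 genotypes was measured on 15 Agilent 2-colour arrays (sample in Cy5, pooled reference in Cy3, per the labels). The deposited scanner files hold spot and local background intensity, read by Feature Extraction 9.1.3.1 with no background taken off, per the file headers, and a log10 ratio of red over green dye-normalised by that software. The authors also deposited 1 table of log2 values; that these are ratios with the sample on top was read by setting it against the scanner ratio (r from 0.821 to 0.936 per array). Its centring is near 0 (medians 0.0039 to 0.052), and how it was normalised is not given in the sources used here.

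In limma 3.58.1 (R 4.3.3), background was corrected by normexp (offset 50) and ratios by loess, with control and outlier spots at weight 0. Outlier spots were then left out and the spots of a probe averaged. A probe was tested if 3 or more arrays of any 1 genotype had its red signal well above background, which kept 27698 of 41174. All 15 arrays entered 1 fit of genotype means, leaving 11 degrees of freedom. Two-sided moderated p-values were adjusted by Benjamini-Hochberg over all tested probes, and an adjusted p under 0.05 was called. Intervals are at 95%. Median sample signals were 251.9 to 452.4 units per array; precision is limited by how many arrays there are. P-values set each difference against the spread between arrays of the same genotype, and how many embryos a culture came from is not given.

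The genes and lists were chosen with earlier results of these data known. All probes of the 10 genes are named. The other lists covered SRF partners and targets, TGF-beta and markers of other cell types. Their genes named with values, other than Mrtfa and Smtn, are among the 3 with the smallest p in a comparison. For each gene the brightest tested probe was taken. A further list and 1 of the 10 probes most like the members are not reported here. Of the marker lists, the pericyte, skeletal, cardiac and epithelial lists had r = 0.50, 0.67, 0.80 and 0.47 with the member median over 15 arrays. The endothelial list had 0.46, and no gene of these lists was called. Without p27 knock-out 2 the values were 0.12, 0.42, 0.80 and 0.16, and 0.27 for the endothelial list. The cardiac list holds Actc1 and the skeletal list Acta1, both among the 10 probes most like the members. Probes tested were named through RefSeq (GRCm38.p6) accessions for 18204, current symbols for 4017 and older symbols for 1906; the other 3571 were left as the array design names them. The fit was tested on simulated data. Replicate numbers were not used as pairs in the main fit. Of 21 same-number pairs, 12 had a residual correlation over 0.1 (-0.259 to 0.415), and no value for pairs of different number is given here. These values do not settle whether the numbers pair the samples. The replicate number was also the slide number in every genotype but the double knock-out. Alternatives covered background, normalisation, filter, probe choice, blocks, weights, variance model, sample channel alone, Xist as a covariate and leaving out each array; keeping outlier spots was added after seeing the data.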

Additional observations from a re-analysis of the deposited data

Results flagged for a closer look

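Tpm1 probe 1 on wild type 1, at a log2 ratio of 0.436, lay apart from the other wild type arrays, the nearest of which was at 1.09. Its gap was 0.846 of the group's range, against a critical value for 4 samples that the 42 groups of 4 values were held to. Chance gives about 1 such value in 20 groups, and this was the only one found.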

How the results depend on the processing

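None of the 17 probes was called under any of 31 other settings, 15 of which left out 1 array; the smallest adjusted p over the settings was 0.153. Between 0 and 26 of the 502 to 520 probe differences of a comparison, none of them called, changed sign. Leaving out 1 array gave median differences of -1.10 (without p27 knock-out 1) to -0.19 (without p27 knock-out 2) for p27 knock-out against wild type, -0.81 to -0.46 for stathmin knock-out and 0.03 to 0.39 for double knock-out. The last was 0.37 without double knock-out 1, 0.03 without double knock-out 3, 0.07 without wild type 1 and 0.39 without wild type 2. It gave 0.37 to 1.34 for double against p27 knock-out, 0.50 to 1.03 against stathmin knock-out (1.03 without double knock-out 1) and 1.00 to 1.89 for the interaction. The sample channel alone gave an interaction median of 0.83, and array weights 0.21 for double knock-out against wild type; the cause was not tested. With the replicate number as a block, the medians were -0.74, -0.58 and 0.0076 for the p27, stathmin and double knock-outs against wild type, 0.70 and 0.51 for the double against the single knock-outs and 1.35 for the interaction; no call among the 17 probes changed, and over all probes 2 were called for double knock-out against wild type and 2 against p27 knock-out. Over all probes, 0, 2, 1, 1, 0 and 0 were called in the 6 comparisons in the order of the report. Array weights gave 13 for stathmin knock-out, 24 for double knock-out, 2 and 1 for the double against the p27 and stathmin knock-outs and 2 for the interaction; other settings gave 0 to 3. A fit of only the genotypes compared gives no interaction. Acta2 probe 1 is limited by saturation on 14 of 15 arrays, and Tagln probe 1 and Tpm1 probe 1 on double knock-out 3. Spots left out as outliers leave 10 values for Acta2 probe 3 and 11 for Tpm2 probe 1.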
